A study of Mus musculus with 8 samples.

Results

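Smooth muscle cells and pericytes are the mural cells that wrap arteries and capillaries. The genes described here are 10 widely used markers of these cells, chosen by symbol from the count tables: 10 of the 24062 genes that both tables hold. No rule on their values was used, but earlier results of these data were known when they were chosen. They comprise 5 genes of the smooth muscle contractile apparatus (Myh11, Cnn1, Tagln, Smtn and Lmod1) and 5 genes of pericytes and other mural cells (Rgs5, Pdgfrb, Notch3, Cspg4 and Abcc9). All 10 had enough reads to be tested, and 10 of 10 had reads in each library.

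RNA was measured in the free wall of the left ventricle of male C57BL/6 mice, aged 8 to 12 weeks, after ligation of the left anterior descending coronary artery to give a myocardial infarction (MI), or after sham surgery without ligation. Tissue was collected at 1 day or 3 days, the MI tissue being described as ischemic, and each of the 4 groups (sham at 1 day, MI at 1 day, sham at 3 days, MI at 3 days) held 2 mice, 1 library each. All groups were of 1 strain, with no transgene or drug given in the labels. The letters A and B name the libraries of each group in column order, since the count columns carry no replicate number.

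Mural cells contract through smooth muscle myosin and actin, and the genes of this apparatus are switched on by the transcription factor Srf with its cofactor myocardin. Pericytes are recruited to capillaries by endothelial Pdgfb acting on the receptor Pdgfrb, and Notch3 keeps arterial smooth muscle cells mature. Several of these genes are not confined to mural cells in the heart: activated fibroblasts also make Tagln, Cnn1 and Acta2, and cardiac muscle cells also make Abcc9, the regulatory subunit of the ATP-sensitive potassium channel.

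Total gene counts ran from 18831791 to 25041386 in the sham libraries and MI libraries of 3 days and the sham libraries of 1 day, and were 12662237 and 7382490 in MI libraries A and B of 1 day. Levels are CPM, the reads of a gene relative to a fixed library total after scaling by the TMM method, and 3 counts equalled 0.102 to 0.369 CPM. MI library B of 1 day stood apart: reads fell on 92.1% of 1513 chemosensory receptor genes there, on 50.6% in sham library B of 1 day, 23.6% in MI library A of 1 day, and 4.43% to 8.2% in the other libraries. The mitochondrial share of transcript reads also moved with the groups: 13.9% to 16.6% in sham, 28.7% and 43.3% in MI at 1 day, and 6.51% and 4.19% in MI at 3 days. Markers of cardiac muscle were present in each library, and the summed level of 8 cardiomyocyte markers was 83160 and 89590 CPM in sham at 1 day, 31760 and 41100 in MI at 1 day, 59810 and 65020 in sham at 3 days, and 3422 and 3714 in MI at 3 days. The 6 markers of activated fibroblasts summed to 447.2 to 553.8 CPM in the sham libraries, 1069 and 1402 in MI at 1 day, and 8123 and 8518 in MI at 3 days. In bulk tissue fewer cells of a type and less RNA per cell cannot be told apart, and what share of the results below moved with these cell types was not tested. With 2 mice a group, p-values measure only the spread between these few libraries.

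At 3 days some of the 10 genes were higher in MI and others lower, as was so over all genes (31.7% higher, 23.7% lower). Tagln and Cnn1, with a smaller difference for Pdgfrb, were higher than in sham, while Abcc9, Rgs5, Myh11, Smtn and Notch3 were lower. The Pdgfrb call was lost in most of the alternative fits given below, and those for Notch3, Smtn and Myh11 in some of them. At 1 day the test passed for lower Abcc9 and Notch3, and for no other gene of the 10. By edgeR's quasi-likelihood test with Benjamini-Hochberg adjustment over 15508 genes, 2 of 10 genes passed an adjusted p of 0.05 at 1 day, 0 higher and 2 lower, against 39% of all genes tested (19.3% higher, 19.7% lower). At 3 days 8 of 10 passed, 3 higher and 5 lower, against 55.4% of all genes (31.7% higher, 23.7% lower). The median log2 fold change of the 10 genes was -0.22 at 1 day and -0.43 at 3 days, beside 0.12 and 0.16 for all genes tested. Both MI libraries lay above both sham libraries for 2 genes and below for 4 at 1 day (34.7% and 32.6% of all genes), and above for 3 and below for 6 at 3 days (45.9% and 35.1%).

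**Figure D1:**
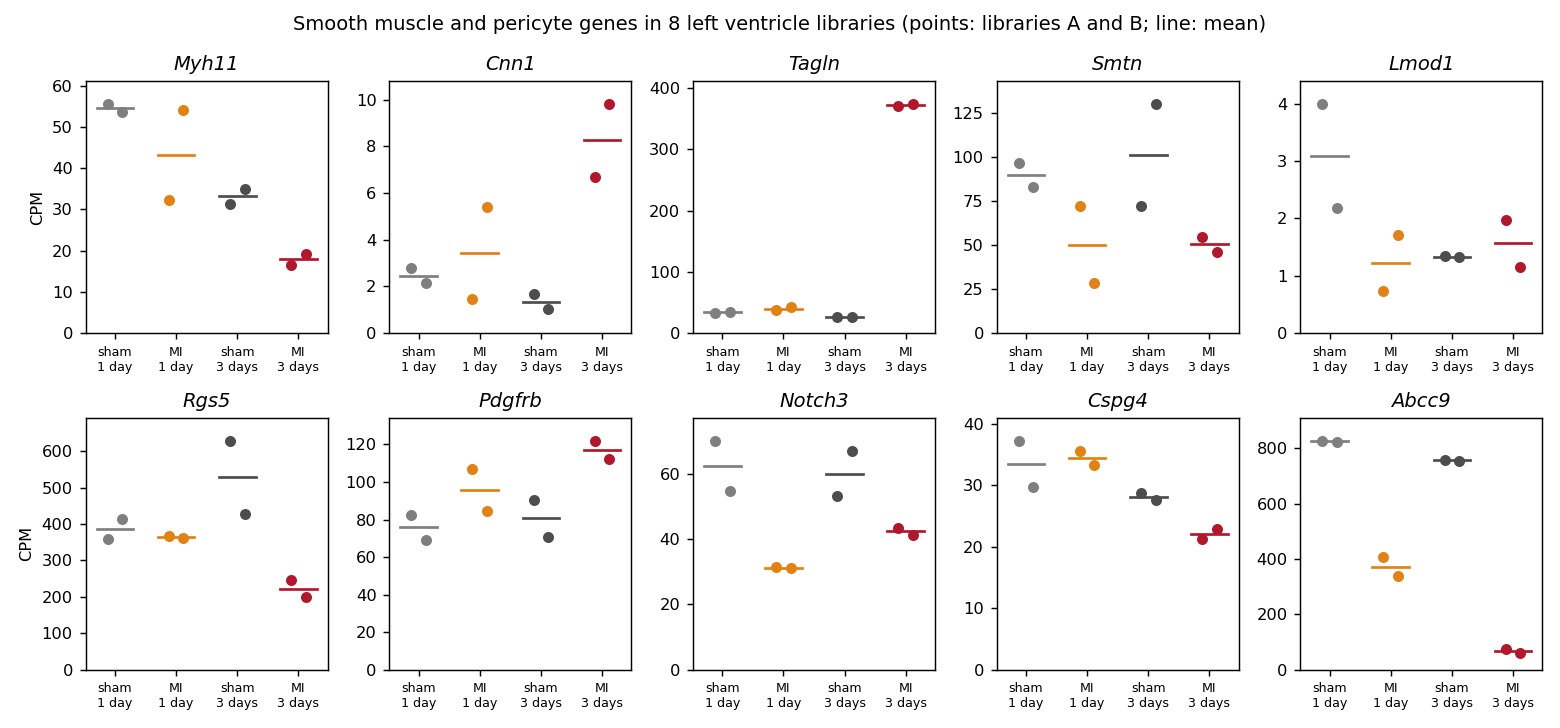
CPM (vertical axis, linear from 0, a different scale in each panel) of each of the 10 genes in the 4 groups; points are libraries A and B and the line is their mean. Tagln stands at 370 and 374 CPM in MI at 3 days and Abcc9 at 76.1 and 60.5 CPM, each outside the range of the other 6 libraries.

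Among the contractile genes, Tagln encodes transgelin (SM22), an actin-binding protein of smooth muscle. Its level was 32.3 and 34.8 CPM in sham at 1 day and 36.8 and 43.2 CPM in MI at 1 day. At 3 days it was 26.3 and 26.3 CPM in sham and 370 and 374 CPM in MI. Both MI libraries of 3 days thus stood far above the other 6, which lay close together. Tagln rose 14.1-fold at 3 days (log2 fold change 3.82, SE 0.178, adjusted p = 1.26e-06). At 1 day the log2 fold change was 0.25 (SE 0.171, adjusted p = 0.272), although both MI libraries lay above both sham libraries. With library sizes alone in place of TMM factors, a scaling that moved the median of all genes to 0.40, the value at 1 day was 0.54 with an adjusted p of 0.0478. Reads of Tagln can overlap Pcsk7, a protease gene whose RefSeq span shares 2480 bases with it. Pcsk7 itself read 26.5 and 28.6 CPM in sham and 31 and 36.5 CPM in MI at 3 days.

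Cnn1 encodes calponin, which binds actin and restrains myosin in mature smooth muscle. It was a low gene: 48 and 37 reads (2.78 and 2.13 CPM) in sham at 1 day, and 18 and 44 reads (1.46 and 5.41 CPM) in MI at 1 day. The 3 day libraries had 31 and 19 reads (1.66 and 1.01 CPM) in sham and 163 and 288 reads (6.68 and 9.81 CPM) in MI. The MI libraries of 3 days lay above the rest, and the MI libraries of 1 day lay on either side of their sham libraries. Cnn1 rose 6.19-fold at 3 days (log2 fold change 2.63, SE 0.504, adjusted p = 0.0016). At 1 day the log2 fold change was 0.35 (SE 0.603, adjusted p = 0.671), and it turned to -0.745 without MI library B, the library with reads on most receptor genes.

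Promoter windows, from 250 bases before to 50 after the start, were available for 7 of the 10 genes in the promoter set used (GRCm38.p6): Cnn1, Smtn, Lmod1, Rgs5, Notch3, Cspg4 and Abcc9. The set held no window for Myh11, Tagln and Pdgfrb, and its starts can differ from those of RefSeq. The CArG box, the element that Srf binds, was searched by its full pattern on both strands. It was found in 0 of these 7 windows and in 1.63% of all 32851 windows. This says nothing of elements farther away or within introns, or of variants that differ from the full pattern. Only part of the other contractile genes were searched. Of these, Myl9 (myosin light chain 9) and Vcl held a match, as did Srf itself. Acta2, Tpm1, Tpm2, Cald1, Flna, Mylk, Synpo2, Ppp1r12b, Ppp1r14a and Pcp4l1 held none. Myl9 was not called at 1 day (-0.38, adjusted p = 0.37) and was higher at 3 days (1.5, SE 0.301, adjusted p = 0.00214). Vcl was higher at 1 day (0.73) but not called at 3 days (-0.18, adjusted p = 0.401), when Srf was lower (-1.58). The bases before the RefSeq gene span are shown for Cnn1, which rose at 3 days and has no match (chr9:22099003-22099220, plus strand). They are also shown for Myl9, which rose and has one (chr2:156775214-156775407, plus strand), with the matching letters in capitals. The position of this match, -161, counts from the start of the promoter set. That start lies inside the RefSeq gene span, so the printed bases end before it. Myl9 was named after its window had been read.
Cnn1: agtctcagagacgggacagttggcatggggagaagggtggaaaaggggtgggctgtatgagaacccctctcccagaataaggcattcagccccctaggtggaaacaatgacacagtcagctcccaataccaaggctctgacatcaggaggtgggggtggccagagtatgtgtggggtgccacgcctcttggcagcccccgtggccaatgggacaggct
Myl9: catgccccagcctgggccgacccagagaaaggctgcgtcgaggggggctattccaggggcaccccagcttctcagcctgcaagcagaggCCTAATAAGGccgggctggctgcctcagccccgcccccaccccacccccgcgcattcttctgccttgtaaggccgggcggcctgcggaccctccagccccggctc

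Myh11 is the smooth muscle myosin heavy chain, the marker held to be most specific for mature smooth muscle. It stood at 55.6 and 53.6 CPM in sham and 32.4 and 54.2 CPM in MI at 1 day. Values at 3 days were 31.4 and 34.9 CPM in sham and 16.6 and 19.1 CPM in MI. The groups overlapped at 1 day and did not at 3 days, when Myh11 was 1.85-fold lower in MI (log2 fold change -0.89, SE 0.242, adjusted p = 0.0111). That call was lost without sham library B of 3 days (-0.80, adjusted p = 0.0614) and with library sizes alone (-0.62, adjusted p = 0.0691). At 1 day the log2 fold change was -0.35 (SE 0.24, adjusted p = 0.274); without MI library B it was -0.75 with an adjusted p of 0.0129. The sham libraries of 3 days also lay below those of 1 day, with a log2 difference of -0.72 (SE 0.237) that had an unadjusted p of 0.0133 and an adjusted p of 0.631.

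Smtn encodes smoothelin, a cytoskeletal protein of contractile smooth muscle. It read 96.7 and 83 CPM in sham and 72.1 and 28.3 CPM in MI at 1 day. At 3 days the sham libraries differed widely, with 72.1 and 130 CPM, and the MI libraries read 54.5 and 46.2 CPM. MI lay below sham on both days without overlap. The log2 fold change was -0.82 at 1 day (SE 0.393, adjusted p = 0.126) and -1.0 at 3 days (SE 0.383, adjusted p = 0.0485). The first passed without MI library A of 1 day (-1.76, adjusted p = 0.00571). The second was lost without either sham library of 1 day (adjusted p = 0.0968 without A and 0.0972 without B), without sham library B of 3 days (-0.51, adjusted p = 0.442), and without MI library A or B of 3 days (adjusted p = 0.0894 and 0.152). It was also lost with library sizes alone (-0.73, adjusted p = 0.0861) and without the low-count filter (adjusted p = 0.0673).

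Lmod1, leiomodin 1, nucleates actin filaments in smooth muscle. It was the lowest of the 10 genes by mean CPM per kilobase in each group, though it overlapped Cnn1 in sham at 1 day. Its reads numbered 69 and 38 in sham and 9 and 14 in MI at 1 day, and 25 and 25 in sham and 48 and 34 in MI at 3 days. In CPM this was 4 and 2.18, then 0.73 and 1.72, at 1 day, and 1.34, 1.33, 1.97 and 1.16 at 3 days. MI lay below sham at 1 day and the groups overlapped at 3 days. Neither difference passed (log2 fold change -1.44, SE 0.616, adjusted p = 0.091 at 1 day, and 0.20, SE 0.537, adjusted p = 0.768 at 3 days).

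Abcc9 had the highest CPM of the 10 genes in each sham library, and the largest fall of the 10 at 3 days. It read 827 and 823 CPM in sham and 406 and 338 CPM in MI at 1 day. Values at 3 days were 756 and 755 CPM in sham and 76.1 and 60.5 CPM in MI. The sham libraries were alike on both days, the MI libraries of 1 day lay between, and those of 3 days lay lowest. Abcc9 was 2.22-fold lower at 1 day (log2 fold change -1.15, SE 0.176, adjusted p = 0.00119) and 11.1-fold lower at 3 days (-3.47, SE 0.192, adjusted p = 1.58e-06). Each of 8 cardiomyocyte markers fell at both days too, beside 19.7% and 23.7% of all genes. Their median log2 fold change was -1.04 at 1 day and -3.98 at 3 days.

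Rgs5, a GTPase activator that damps G protein signals and a standard pericyte marker, read 360 and 414 CPM in sham and 368 and 363 CPM in MI at 1 day. The 3 day values were 629 and 428 CPM in sham and 247 and 199 CPM in MI. The 1 day groups overlapped and the MI libraries of 3 days were the lowest of the 8. Rgs5 was 2.37-fold lower at 3 days (log2 fold change -1.25, SE 0.214, adjusted p = 0.000798). At 1 day the value was -0.08, with an SE of 0.211 and an adjusted p of 0.785, and it was 0.21 with library sizes alone.

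Notch3, the Notch receptor of arterial smooth muscle and pericytes, read 70.1 and 54.6 CPM in sham and 31.3 and 31.1 CPM in MI at 1 day. Sham and MI at 3 days read 53.2 and 66.8 CPM and 43.4 and 41.3 CPM. MI lay below sham on both days. The log2 fold change was -1.0 at 1 day (SE 0.203, adjusted p = 0.00465), and -0.86 with an adjusted p of 0.0561 without sham library A of 1 day. At 3 days it was -0.50 (SE 0.193, adjusted p = 0.0491). That call was lost without any 1 of 6 libraries: adjusted p = 0.0815 and 0.0806 without sham A and B of 1 day, 0.0506 and 0.346 without sham A and B of 3 days, and 0.0706 and 0.0942 without MI A and B of 3 days. The same happened with library sizes alone (-0.24, adjusted p = 0.305) and without the low-count filter (adjusted p = 0.104).

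Pdgfrb, the platelet-derived growth factor receptor through which pericytes are recruited, and which fibroblasts also carry, read 82.4 and 69.3 CPM in sham and 107 and 84.3 CPM in MI at 1 day. At 3 days it read 90.6 and 70.7 CPM in sham and 122 and 112 CPM in MI. MI lay above sham on both days; at 1 day the nearest libraries of the 2 groups were closer than those within a group. The log2 fold change was 0.34 at 1 day (SE 0.2, adjusted p = 0.208) and 0.54 at 3 days (SE 0.197, adjusted p = 0.0408). With library sizes alone the value at 1 day was 0.62 (adjusted p = 0.0281). The call at 3 days was lost in 12 of 15 alternatives, among them the removal of any 1 library other than MI library B of 1 day, which gave adjusted p-values from 0.0512 (without sham A of 3 days) to 0.542 (without MI A of 3 days), with 0.0837 and 0.0828 without sham A and B of 1 day, 0.109 without MI A of 1 day, 0.288 without sham B of 3 days and 0.365 without MI B of 3 days.

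Cspg4 encodes the NG2 proteoglycan on the surface of pericytes. It read 37.3 and 29.8 CPM in sham and 35.6 and 33.3 CPM in MI at 1 day, and the groups overlapped. At 3 days it read 28.8 and 27.6 CPM in sham and 21.3 and 22.9 CPM in MI, with no overlap. The log2 fold change was 0.04 at 1 day (SE 0.191, adjusted p = 0.884) and -0.35 at 3 days (SE 0.187, adjusted p = 0.14). The value at 3 days passed in 3 of 15 alternatives: without MI library A of 1 day (-0.57, adjusted p = 0.0143), with relative log expression factors (-0.48, adjusted p = 0.0497) and with only the groups of 3 days in the fit (-0.58, adjusted p = 0.0132).

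**Figure D2:**
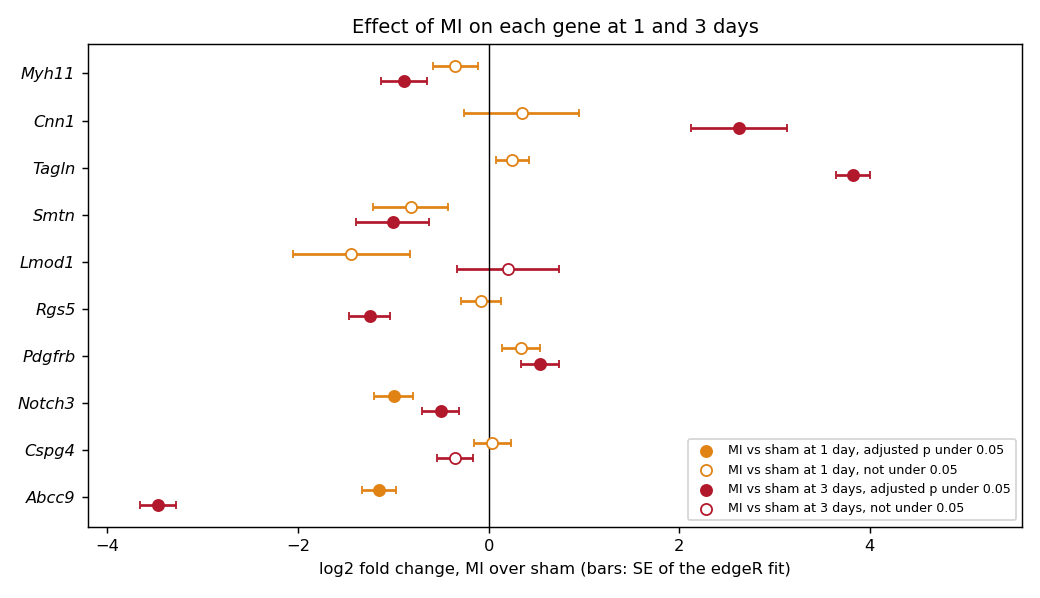
Log2 fold change of MI over sham (horizontal axis) for the 10 genes at 1 day (orange) and 3 days (red), with the SE of the fit as bars; filled points passed an adjusted p of 0.05. At 3 days Tagln (3.82) and Abcc9 (-3.47) mark the ends of the range, and 2 points, Lmod1 and Cspg4, are open.

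Whether the effect of MI differed between the days was tested directly, as the effect at 3 days minus that at 1 day. Of the 10 genes, 3 passed, 1 higher and 2 lower, against 24.5% of all genes (13.2% higher, 11.3% lower). For Tagln the difference was 3.57 (SE 0.24, adjusted p = 9.76e-05) and for Abcc9 -2.32 (SE 0.25, adjusted p = 0.00037). Rgs5 had a difference of -1.17 (SE 0.299, adjusted p = 0.02). The Rgs5 call was lost without sham A, sham B of 1 day, sham A of 3 days or MI B of 3 days (adjusted p = 0.137, 0.0963, 0.0947 and 0.0845). Cnn1 had a difference of 2.28 (SE 0.799, adjusted p = 0.0651), which passed without MI library B of 1 day (3.38, adjusted p = 0.00751). Myh11, at -0.54 (adjusted p = 0.277), passed without MI library A of 1 day (-1.01, adjusted p = 0.0129). Notch3 was lower at both days, by a smaller amount at 3 days, but the difference of 0.49 did not pass (SE 0.279, adjusted p = 0.226).

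Within MI, 6 of 10 genes differed between 3 days and 1 day, 2 higher and 4 lower, against 45.4% of all genes (23.4% higher, 22% lower). Tagln was 9.33-fold higher at 3 days (log2 difference 3.22, SE 0.175, adjusted p = 4.75e-06) and Cnn1 was 2.65-fold higher (1.41, SE 0.497, adjusted p = 0.0434). Abcc9 was 5.45-fold lower (-2.45, SE 0.185, adjusted p = 1.29e-05) and Myh11 was 2.39-fold lower (-1.26, SE 0.248, adjusted p = 0.00276). Rgs5 (-0.72, SE 0.212, adjusted p = 0.0209) and Cspg4 (-0.64, SE 0.191, adjusted p = 0.0215) were lower as well. The libraries of 3 days lay above those of 1 day for 4 genes and below for 4 (36.4% and 34.2% of all genes). Calls for Tagln, Abcc9 and Myh11 held in all 15 alternatives. The Cnn1 call was lost without sham B or MI A of 1 day and without MI A or B of 3 days (adjusted p = 0.0507, 0.331, 0.0622 and 0.226), with relative log expression or upper quartile factors (0.0581 and 0.0745), in DESeq2 (0.122) and with only the MI groups in the fit (0.108). The Rgs5 call was lost without sham A or B of 1 day and without MI B of 3 days (adjusted p = 0.077, 0.0755 and 0.115), with library sizes alone (0.0669) and without the low-count filter (0.0691). The Cspg4 call was lost without sham A or B of 1 day, sham A or B of 3 days, or MI A or B of 3 days (adjusted p = 0.07, 0.0668, 0.0647, 0.0636, 0.0876 and 0.0636), with library sizes alone (0.0667) and without the low-count filter (0.0947).

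Between the sham groups of 3 days and 1 day 0 of 10 genes passed, against 0% of all genes by edgeR. At an unadjusted p under 0.05 there were 2 of 10, Myh11 and Lmod1, against 7.81% of all genes, and DESeq2 called 0 of the 10 and 44 of all genes.

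Ratios of read counts within a library need no scaling between libraries, and differed between the contractile genes. They were set up after the levels had been seen, and are given as descriptions. For each Myh11 read there were 0.581 and 0.649 Tagln reads in sham at 1 day, 1.14 and 0.796 in MI at 1 day, 0.835 and 0.753 in sham at 3 days, and 22.2 and 19.5 in MI at 3 days. Cnn1 reads per Myh11 read were 0.0289 to 0.0527 in the sham libraries, 0.0451 and 0.0998 in MI at 1 day, and 0.401 and 0.512 in MI at 3 days. In MI at 3 days both ratios lay above those of the other 6 libraries. Smtn reads per Myh11 read were 3.27 and 2.42 in MI at 3 days, inside the sham range of 1.55 to 3.72, and 2.23 and 0.522 in MI at 1 day. Lmod1 reads per Myh11 read were 0.118 and 0.0605 in MI at 3 days and 0.0381 to 0.0719 in sham, with overlap.

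Acta2, the smooth muscle actin that activated fibroblasts also make, gave 5.13 and 4.02 reads per Myh11 read in sham at 1 day, 3.92 and 3.54 in MI at 1 day, 5.37 and 5.77 in sham at 3 days, and 22.8 and 22.4 in MI at 3 days. Among the pericyte genes, Pdgfrb reads per Rgs5 read were 0.144 to 0.229 in the sham libraries, 0.29 and 0.232 in MI at 1 day, and 0.495 and 0.566 in MI at 3 days. Here too the MI libraries of 3 days were the highest. Notch3 reads per Rgs5 read (0.176 and 0.208 in MI at 3 days, 0.0846 to 0.195 in sham) and Cspg4 reads per Rgs5 read (0.0865 and 0.115, and 0.0459 to 0.104 in sham) overlapped with sham.

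**Figure D3:**
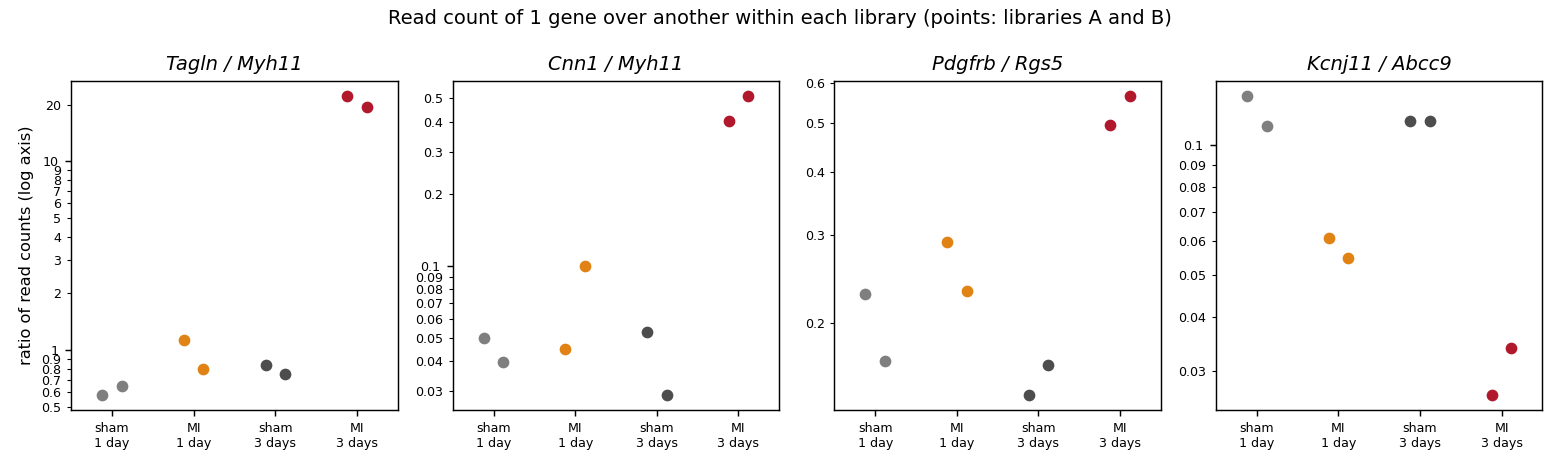
Ratio of the read counts of 2 genes within each library (vertical axis, log scale) in the 4 groups; points are libraries A and B. Tagln over Myh11 rises to 22.2 and 19.5 in MI at 3 days, while Kcnj11 over Abcc9 drops to 0.0264 and 0.0338.

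Levels between genes were compared per kilobase of the longest annotated transcript. In sham at 1 day the order was Abcc9 (110 and 110 CPM per kilobase in A and B), Rgs5 (88 and 101), Smtn (28.6 and 24.5), Tagln (20.4 and 21.9), Pdgfrb (15.2 and 12.8), Myh11 (8.38 and 8.08), Notch3 (8.72 and 6.78), Cspg4 (4.64 and 3.71), Cnn1 (1.17 and 0.898) and Lmod1 (1.01 and 0.553). The neighbours Myh11 and Notch3, and Cnn1 and Lmod1, did not differ beyond their spread. In MI at 3 days Tagln led with 233 and 236 CPM per kilobase, before Rgs5 (60.2 and 48.5), Pdgfrb (22.5 and 20.7), Smtn (16.1 and 13.7) and Abcc9 (10.1 and 8.07). Next came Notch3 (5.39 and 5.14), then Cnn1, Cspg4 and Myh11 at 2.51 to 4.14, whose neighbouring ranges overlapped, and Lmod1 (0.498 and 0.293). In MI at 1 day Rgs5 (89.9 and 88.7) was followed by Abcc9 (54.1 and 45.1), Tagln (23.2 and 27.2), and Pdgfrb (19.7 and 15.5) and Smtn (21.3 and 8.36), which overlapped. In sham at 3 days Rgs5 (153 and 105) and Abcc9 (101 and 101) were followed by Smtn (21.3 and 38.3).

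The transcript tables give reads for each annotated transcript, and 25 transcripts of the 10 genes had enough reads to be tested. At 1 day 0 of 25 were higher and 3 lower, against 13.6% of 43616 transcripts called (7.4% higher, 6.22% lower). At 3 days 3 were higher and 8 lower, against 28.3% (15.2% higher, 13.2% lower). The effect of MI differed between the days for 6 of 25, 1 higher and 5 lower, against 6.36% (2.97% higher, 3.4% lower). Transcript CPM used the gene totals. Transcript reads were 0.53 to 0.708 of the gene total in 7 libraries but 1.16 of it in MI library B of 1 day, so its transcript CPM is on another scale. With the transcript tables' own totals and TMM factors, 0 of 25 were higher and 4 lower at 1 day (14.4% of all called), and 2 higher and 8 lower at 3 days (29.2%). The table does not say how reads shared by transcripts were divided, so shares rest on that unstated step. All 6 Abcc9 transcripts were lower at 3 days, with log2 fold changes from -3.50 to -2.71. At 1 day 2 of the 6 were lower: the one with the most reads (ENSMUST00000100827, -1.01, SE 0.238, adjusted p = 0.0167) and ENSMUST00000111771 (-3.00, SE 0.367, adjusted p = 0.000709). Levels by transcript missed the threshold for Notch3 at 1 day (-0.98, adjusted p = 0.0511, and with transcript totals -1.0, adjusted p = 0.0342). At 3 days they missed it for Notch3 (-0.23, adjusted p = 0.607), Myh11 (-0.77, adjusted p = 0.0797) and both Pdgfrb transcripts (0.64 and -1.14, adjusted p = 0.094 and 0.205). The difference between the days missed it for the main Rgs5 transcript (-1.35, adjusted p = 0.0577, and with transcript totals -1.38, adjusted p = 0.0228).

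Smtn has 10 annotated transcripts, and they did not move together. Smooth muscle uses a shorter smoothelin in visceral organs and a longer one in vessels; the tables do not name these forms and no match to them was made. A transcript of 1747 bases (ENSMUST00000020718) held 72.4% (exact 95% interval 69.4 to 75.2) and 75.2% (72.3 to 78) of Smtn reads in sham at 1 day, and 68.1% (64.7 to 71.3) and 66.2% (63.5 to 68.9) in sham at 3 days. It held 38% (33.4 to 42.8) and 41.2% (32.1 to 50.8) in MI at 1 day. In MI at 3 days it held 21.4% (18.3 to 24.7) and 23.1% (19.9 to 26.6). These exact Clopper-Pearson intervals cover counting error only. Each MI share was below each sham share on both days.

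The 5 transcripts of 3000 bases or more, a grouping made after the values had been seen, held 20.6% to 23.4% of Smtn reads in the sham libraries, 49.9% and 48.2% in MI at 1 day, and 61% and 60.7% in MI at 3 days. In CPM the short transcript was 40.4 and 39.8 in sham against 13.2 and 5.78 in MI at 1 day, and 28.8 and 43.6 against 5.86 and 4.97 at 3 days. The long group was 11.9 and 10.9 in sham against 17.4 and 6.77 in MI at 1 day, and 9.89 and 14.7 against 16.7 and 13 at 3 days, with overlap on both days. The short transcript fell at 1 day (log2 fold change -2.06, SE 0.383, adjusted p = 0.00551) and at 3 days (-2.74, SE 0.388, adjusted p = 0.000277). Of the long ones, ENSMUST00000020721 (3335 bases) was higher at 3 days (1.54, SE 0.511, adjusted p = 0.0401), a call lost with transcript totals (1.46, adjusted p = 0.057). With those totals the short transcript was 62 and 57.5 CPM in sham against 19.8 and 8.4 in MI at 1 day (-2.07, adjusted p = 0.00713), and 43.2 and 72.6 against 8.35 and 8.12 at 3 days (-2.81, adjusted p = 0.000454).

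**Figure D4:**
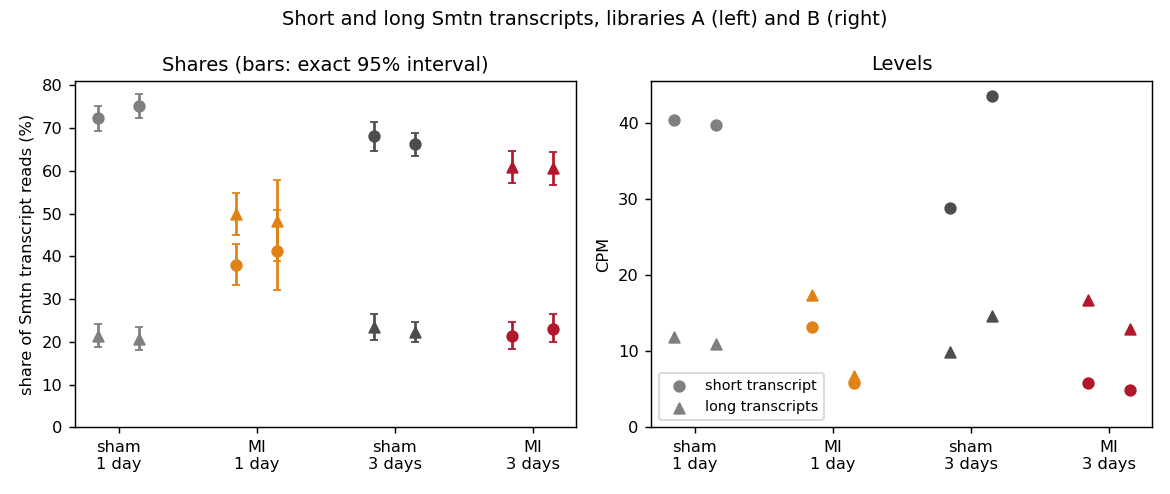
Share of Smtn transcript reads in percent (left, bars are exact 95% intervals) and CPM (right) of the short transcript (circles) and the 5 long transcripts (triangles) in libraries A and B of each group. The short share falls from 66.2% or more in sham to 23.1% or less in MI at 3 days, while the CPM of the long transcripts overlaps between sham and MI.

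Of 19 other genes of the contractile apparatus, 4 rose and 5 fell at 1 day, and 7 rose and 6 fell at 3 days; the list median was -0.30 and -0.06. These are 21.1% and 26.3% of the list at 1 day, beside 19.3% and 19.7% of all genes, and 36.8% and 31.6% at 3 days, beside 31.7% and 23.7%. Without MI library B of 1 day the list median at 1 day was -0.52, beside -0.01 for all genes. It was -0.43 without sham A and 0.09 without sham B of 1 day, beside 0.27 and 0.25 for all genes. Acta2 read 285 and 215 CPM in sham and 127 and 192 in MI at 1 day, then 169 and 201 in sham and 380 and 428 in MI at 3 days. It rose at 3 days (1.13, SE 0.231, adjusted p = 0.00241; without MI library B of 3 days 0.81, adjusted p = 0.0619). At 1 day Acta2 was lower by the test (-0.65, SE 0.232, adjusted p = 0.0498), a call lost in 8 of 15 alternatives: with library sizes alone (-0.34, adjusted p = 0.298), upper quartile factors or only 2 groups in the fit, and without sham A, sham B or MI A of 1 day or MI A or B of 3 days (adjusted p = 0.247, 0.0521, 0.0832, 0.0694 and 0.0704). The effects of the 2 days differed by 1.78 (SE 0.328, adjusted p = 0.00475). Flna, filamin A, rose at both days (1.33 and 2.13). Synpo2 (-1.03 and -3.03), Ppp1r12b (-1.41 and -3.06) and Pcp4l1 (-1.54 and -3.77) fell at both days. The others called at 1 day, named here after their values were seen, were Cald1, Mustn1 and Vcl (higher) and Tpm1 (lower); the Mustn1 call was lost in 12 of 15 alternatives, with the value at 0.19 without MI library A of 1 day. Cardiac muscle also expresses Synpo2, Tpm1, Slmap and others of this list.

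The 20 other pericyte and mural genes tested included 3 that rose and 5 that fell at 1 day, and 4 that rose and 9 that fell at 3 days, with a median of -0.17 and -0.61. These are 15% and 25% of the list at 1 day, near the 19.3% and 19.7% of all genes, and 20% and 45% at 3 days, beside 31.7% and 23.7%. The list median at 1 day was -0.27 without sham A and -0.20 without sham B of 1 day, beside 0.27 and 0.25 for all genes. At 3 days it was -0.85 without MI library B and -0.49 without sham library A of 3 days, beside -0.05 and 0.07 for all genes. Mcam (CD146) rose from 49.5 and 43.6 CPM to 136 and 149 at 1 day and from 41.5 and 47.3 to 233 and 186 at 3 days (log2 fold change 1.61 and 2.24). Kcne4 (2.59 and 2.27) and the endothelin receptor Ednrb (2.2 and 0.95) rose at both days, and Anpep, named after its value was seen, rose at 3 days (1.43). Without MI library B of 3 days the last 2 calls of 3 days were lost (Ednrb 0.56, adjusted p = 0.0958, and Anpep 1.01, adjusted p = 0.0703). Agtr1a, the angiotensin receptor, read 35.9 and 32 CPM in sham and 2.42 and 3.71 in MI at 3 days, a log2 fold change of -3.45. Vtn (-1.49 and -2.53) fell at both days. Colec11 and Ednra, named after their values were seen, also fell at 1 day. The endothelial markers, which share the vessel with these cells, were higher for 5 of 8 genes and lower for 1 at 1 day, and higher for 4 and lower for 1 at 3 days.

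Abcc9 pairs with a pore-forming subunit, Kcnj8 in mural cells and Kcnj11 in cardiac muscle, and Abcc8 is its close relative. Kcnj11 read 108 and 91.2 CPM in sham and 24.7 and 18.6 in MI at 1 day, and 85.9 and 86 against 2.01 and 2.04 at 3 days, with log2 fold changes of -2.19 and -5.4. Kcnj8 read 38.7 and 39.1 CPM in sham and 46.4 and 28.4 in MI at 1 day, with overlap (-0.04, adjusted p = 0.929), and 70.4 and 37.5 against 22.4 and 18.8 at 3 days (-1.39, SE 0.314, adjusted p = 0.00417). Without sham library A of 3 days, the high one, the Kcnj8 value was -0.86 with an adjusted p of 0.0594. Abcc8 fell at both days (-2.39 and -5.55). Kcnj8 reads per Abcc9 read were 0.0468 to 0.0931 in sham, 0.114 and 0.084 in MI at 1 day, and 0.295 and 0.311 in MI at 3 days. Kcnj11 reads per Abcc9 read were 0.111 to 0.13 in sham, 0.0608 and 0.0549, and 0.0264 and 0.0338. The MI libraries of 3 days held the highest first ratio and the lowest second ratio of the 8.

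Of 15 tested transcription factors and cofactors of the smooth muscle programme, 1 rose and 3 fell at 1 day, and 3 rose and 5 fell at 3 days. These are 6.67% and 20% of the list at 1 day, beside 19.3% and 19.7% of all genes, and 20% and 33.3% at 3 days, beside 31.7% and 23.7%. Myocd, the gene of myocardin, read 106 and 67.4 CPM in sham and 52.7 and 53.9 in MI at 1 day (-0.70, adjusted p = 0.127), and 56.2 and 121 against 10.6 and 9.91 at 3 days (-3.11, SE 0.367, adjusted p = 7.72e-05). Like Abcc9, it was lowest in MI at 3 days, and cardiac muscle also makes it. Srf fell at both days (-0.93 and -1.58), as did Gata6 (-0.77 and -1.45) and Mef2c (-0.60 and -0.86). Klf4, a repressor of contractile genes, was lower in MI than in sham at 3 days (-1.88). It read 16.7 and 23.4 CPM in sham and 35.3 and 12.7 in MI at 1 day, and 52 and 37.1 against 15.7 and 8.72 at 3 days. With 1 library left out, the falls of Srf, Gata6 and Mef2c at 1 day kept their sign, though calls were lost. Without sham B of 1 day the values were -1.14 for Srf, -0.89 for Gata6 and -0.51 for Mef2c. Without sham A of 1 day they were -0.81 for Srf and -0.76 for Gata6. Without MI A or B of 3 days they were -0.96 and -0.96 for Srf, and -0.65 and -0.64 for Mef2c. With library sizes alone 3 genes of the list rose and 0 fell at 1 day, when 40.6% of all genes were called, 67.9% of them higher. Named after their values were seen, the factors that rose were Klf5 at 1 day (4.46) and Tbx18 (1.34), Mkl1 (0.95) and Prrx1 (0.57) at 3 days. The Prrx1 call was lost in 7 of 15 alternatives, among them without MI A of 1 day, sham B of 3 days or MI A or B of 3 days (adjusted p = 0.0584, 0.113, 0.269 and 0.384), and the Mkl1 call without sham A or MI A or B of 3 days (0.117, 0.0683 and 0.348).

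In the Notch pathway, 5 of 16 genes rose and 1 fell at 1 day (31.2% and 6.25%, beside 19.3% and 19.7% of all genes), and 5 rose and 2 fell at 3 days (31.2% and 12.5%, beside 31.7% and 23.7%). Rbpj, the transcription factor on which Notch signals converge, rose from 21.6 and 24.4 CPM to 85.6 and 77.4 at 1 day (1.83, SE 0.253, adjusted p = 0.000753), and was 0.84 higher at 3 days, a call lost without sham B, MI A or MI B of 3 days (adjusted p = 0.145, 0.401 and 0.0543). Lfng, which modifies Notch receptors, rose at both days (1.34 and 2.19), the first lost without sham A or B of 1 day (adjusted p = 0.103 and 0.0642). The ligand Jag1 rose at 3 days (1.15), lost without sham B or MI A of 3 days (adjusted p = 0.0513 and 0.133), and Jag2 fell (-1.76). Of the target genes, Hey1 fell at 1 day (-1.24), Hey2 fell at 3 days (-1.53), and Heyl passed at neither day (-0.67, adjusted p = 0.0812, and 0.04, adjusted p = 0.905). Hey1 read 18.7 and 18.6 CPM in sham and 8.84 and 6.64 in MI at 1 day. At 3 days it read 11.1 and 10.1 CPM against 8.36 and 6.64 (-0.50, adjusted p = 0.0976). The difference between its effects at the days did not pass (0.74, adjusted p = 0.154). Notch2, Adam10 and Maml1, named after their values were seen, were the others that rose at 1 day, and Notch2 and Adam10 the others at 3 days. The calls of 1 day were lost without sham A or B of 1 day for Notch2 (adjusted p = 0.0774 and 0.177), Adam10 (0.153 and 0.107) and Maml1 (0.145 and 0.274), and without sham B of 3 days that of 3 days for Jag2 (0.0512). The number higher changed over the 15 alternatives, as did the number of all genes called. The list median was 0.546 at 1 day and 0.355 at 3 days. At 1 day it was 0.661 without sham A and 0.409 without sham B of 1 day, beside 0.267 and 0.247 for all genes. At 3 days it was -0.058 without MI A of 3 days, beside -0.02 for all genes.

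In the PDGF pathway, 1 of 10 genes rose and 2 fell at 1 day (10% and 20%, beside 19.3% and 19.7% of all genes), and 2 rose and 4 fell at 3 days (20% and 40%, beside 31.7% and 23.7%). Pdgfb, the ligand that recruits pericytes, read 50 and 40.6 CPM in sham and 48.8 and 15.6 in MI at 1 day, and 24.3 and 33 against 32.4 and 25.1 at 3 days; the groups overlapped at both days and neither difference passed (adjusted p = 0.397 and 0.994). Pdgfa was higher at 1 day (1.07, adjusted p = 0.0183), a call lost with only 2 groups in the fit and without sham A, sham B or MI A of 1 day or MI A or B of 3 days (adjusted p = 0.114, 0.162, 0.166, 0.053 and 0.0537). The list median at 1 day was -0.33, beside 0.12 for all genes, and -0.64 without MI library A of 1 day, beside 0.25. Pdgfc rose at 3 days (1.82, SE 0.324, adjusted p = 0.00101). Grb2, an adaptor of receptor tyrosine kinases, fell at both days (-1.02 and -0.66), Nrp1 fell at 1 day (-0.54, lost in 7 of 15 alternatives, among them without sham A or B of 1 day and MI A or B of 3 days), and Pik3r1 (-1.59) and Ptpn11 (-1.28) fell at 3 days. Pdgfra (higher, 0.74) and Plcg1 (lower, -1.01), named after their values were seen, complete the calls of 3 days. The Pdgfra call was lost in 10 of 15 alternatives. Calls of 3 days were also lost without sham library A of 3 days for Grb2 (adjusted p = 0.0515), without sham library B for Pik3r1 (0.0533) and Plcg1 (0.267), and without MI A or B of 3 days for Plcg1 (0.068 and 0.0534).

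Of 10 other RGS genes, relatives of Rgs5, 2 rose and 2 fell at 1 day (20% and 20%, near the 19.3% and 19.7% of all genes) and 6 rose and 2 fell at 3 days (60% and 20%, beside 31.7% and 23.7%). Rgs16 rose at both days (3.43 and 3.40), Rgs19 rose at both (1.25 and 2.23), and Rgs6 fell at both (-1.40 and -3.29). Rgs1, a leukocyte gene, read 3.1 and 0.372 CPM in sham and 213 and 17.9 in MI at 3 days, so that 1 library held most of its reads. Rgs2 (1 day) and Rgs4 (3 days), named after their values were seen, were the other falls. Without sham library A of 1 day the calls of that day were lost for Rgs19 (adjusted p = 0.0906) and Rgs2 (0.0843), and without sham library A of 3 days that for Rgs4 (0.123). Each of 8 leukocyte markers rose at 3 days, and 4 rose at 1 day.

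Of 10 close relatives of the contractile genes, 3 rose and 4 fell at 1 day (30% and 40%, beside 19.3% and 19.7% of all genes), and 5 rose and 4 fell at 3 days (50% and 40%, beside 31.7% and 23.7%). Without sham library A of 1 day the calls of that day for Cnn3, Myh10, Lmod2 and Smtnl2 were lost. Their values were then 1.055, 0.9674, -0.9745 and -1.309, beside 1.135, 1.114, -0.9719 and -1.224 with all libraries. The non-muscle myosin Myh9 rose from 254 and 239 CPM to 834 and 525 at 1 day and from 214 and 188 to 862 and 833 at 3 days (1.46 and 2.07). Lmod2 and Lmod3, the leiomodins of striated muscle, fell at both days (-0.97 and -3.30 for Lmod2, -2.51 and -4.05 for Lmod3), as did Myh14 (-1.69 and -4.73). Cnn3 and Myh10 at both days, Cnn2 and Tagln2 at 3 days (higher), and Smtnl2 at both days (lower) were also called, and are named after their values were seen.

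**Figure D5:**
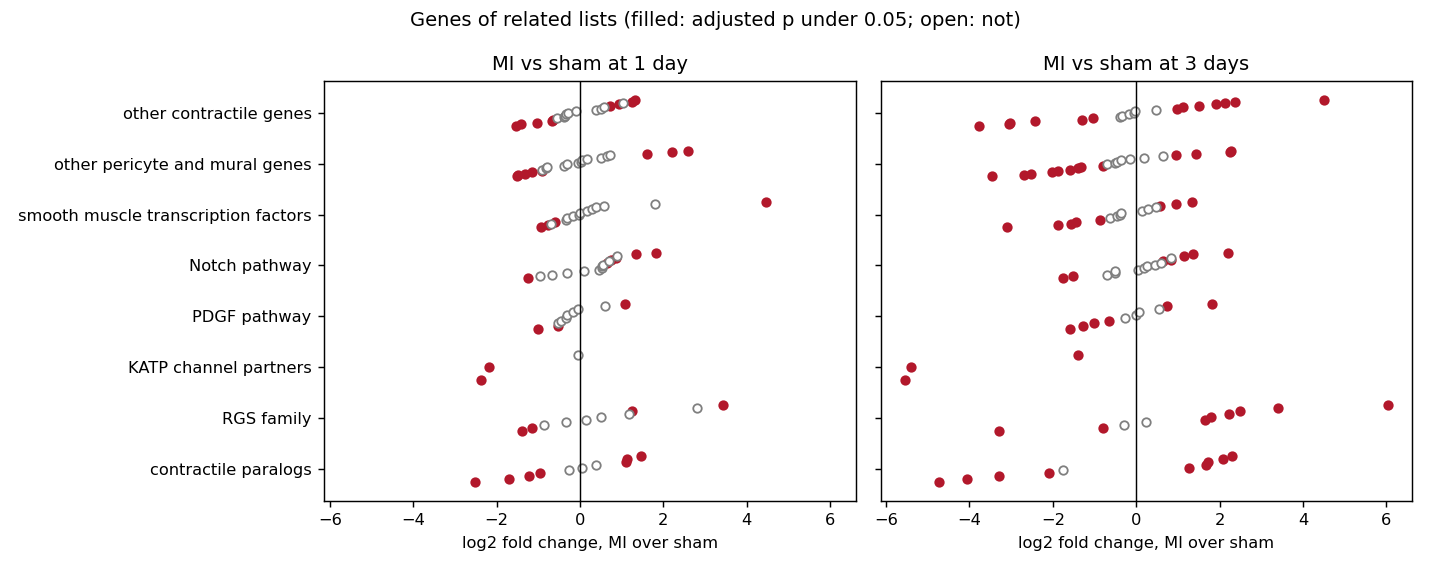
Log2 fold change of MI over sham (horizontal axis) for each tested gene of 8 related lists at 1 day (left) and 3 days (right); filled points passed an adjusted p of 0.05. The KATP channel partners lie left of 0 at 3 days, with Abcc8 (-5.55) and Kcnj11 (-5.4) farthest out. At 1 day Abcc8 and Kcnj11 lie left of 0 and Kcnj8 lies close to 0 (-0.04, open). The other lists spread to both sides.

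Genes of the whole table were ranked by how closely their log2 CPM followed Myh11 and Rgs5 over the 8 libraries, as a description, with libraries of 1 group sharing a condition and 11214 genes compared. Closest to Myh11 were Mbnl2 (Pearson r 0.983), Snrnp200 (0.978) and Pomt2 (0.969). Closest to Rgs5 were Cd163 (0.966), Nr1d2 (0.966) and Amigo2 (0.948). Cd163 read 111 and 66.5 CPM in sham at 3 days and 26.2 and 20.4 in MI, and Rgs5 itself was higher in sham A than in sham B of that day. Of the 10 genes, Myh11 went with Cspg4 (r 0.84) and Abcc9 (0.81), and against Tagln (-0.81) and Pdgfrb (-0.81), over the same 8 libraries.

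The authors' deposited tables, made at each day on its own, gave the same 2 calls at 1 day: Notch3 (log2 fold change -1.01, adjusted p = 0.00979) and Abcc9 (-1.17, adjusted p = 9.99e-05). At 3 days the sign of the authors' deposited table is sham over MI; turned to MI over sham, it called Tagln (3.63, adjusted p = 3.14e-88), Cnn1 (2.37), Myh11 (-1.06), Smtn (-1.15), Rgs5 (-1.42), Notch3 (-0.67), Abcc9 (-3.62) and Cspg4 (-0.52, adjusted p = 0.0384). Pdgfrb was not called in the authors' deposited table at 3 days (0.36, adjusted p = 0.171), and neither was Lmod1 (0.05, adjusted p = 0.954). The 2 sets of calls at 3 days thus differ in Pdgfrb and Cspg4.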

How the data were processed

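Total RNA was sequenced as paired reads after ribosomal RNA depletion, per the labels' protocols. The submitters' processing notes name HTSeq, DESeq2, SAMtools 0.1.2, TopHat2 2.0.14, Bowtie2 2.2.5 and FastQC, with mm10 as the build; they assign no role to any. The sources used here do not give the strand setting or the annotation. The authors deposited raw counts per gene symbol, counts of total reads per transcript with the transcript length, and tables of log2 fold changes with adjusted p-values, per the file headers. In the 1 day count table both sham columns carry 1 name. Not used were 48 other columns of per-library values.

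The count tables were joined (24062 genes). Genes passing filterByExpr (15508, leaving 8554 untested) were normalised by TMM and fitted over all 8 libraries by group in edgeR 4.0.16 (R 4.3.3; robust quasi-likelihood, legacy option off, common dispersion 0.0602, 4 residual degrees of freedom). The 2-sided F test was adjusted by Benjamini-Hochberg over all genes, threshold 0.05. SE is the log2 fold change divided by the square root of F. Transcript reads (43616 of 96535 tested) used the same design with gene library sizes and TMM factors. Libraries of a group correlated at 0.954 to 0.992 (Spearman). Alternatives used limma 3.58.1, DESeq2 1.42.0, other factors, no filter, fewer libraries and, for levels, another transcript length. The test was checked on simulated data. Reads of overlapping genes cannot be told apart. Besides Pcsk7 with Tagln, long noncoding RNA genes overlap Smtn (Gm11946, 8929 shared bases), Notch3 (Gm38585, 10673, and Gm41568, 3142) and Abcc9 (5330439B14Rik, 11868). Among these noncoding genes only 5330439B14Rik had counts, at 0.034 to 1.97 CPM.

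Members and gene lists were chosen with earlier results of these data known. Genes named were the 10 members, in each list the 3 called genes of largest change at each day with a mean of at least 5 CPM (or, with none called, the highest), 8 fixed genes (Myocd, Srf, Acta2, Kcnj8, Kcnj11, Pdgfb, Jag1, Heyl) and the 3 genes most like Myh11 and Rgs5; others are said to be named after their values were seen. A gene of the lists that the rule names is not reported here. Of 4 Schwann and glial markers 0 were called at 1 day and 1, lower, at 3 days (25%, near the 23.7% of all genes lower). Of 3 epicardial markers 0 were called at both days, beside 39% and 55.4% of all genes. Of 8 fibroblast markers, 4 fell at 1 day (50%, beside 19.7% of all genes). At 3 days 5 rose and 1 fell (62.5% and 12.5%, beside 31.7% and 23.7%).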

Additional observations from a re-analysis of the deposited data

Results flagged for a closer look

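For 3 of the 10 genes the effect of MI differed between 3 days and 1 day by the test of the difference itself (edgeR, adjusted over all genes). The log2 difference was 3.574 for Tagln, -2.321 for Abcc9 and -1.167 for Rgs5. The first was high in both MI libraries of 3 days and near sham in those of 1 day. Abcc9 fell at both days, further at 3 days, and Rgs5 lay near its sham level at 1 day.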

How the results depend on the processing

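The 50 member results were recomputed under 740 alternative values: 640 kept direction and side of the threshold, 55 lost the call, 10 gained it and 35, none of them a called value, changed sign. With library sizes alone 4 members were called at 1 day and 5 at 3 days, beside 40.6% and 58.5% of all genes. Without the low-count filter 5 were called at 3 days, beside 34.5% of all genes. The cause was not tested. Scaling by library sizes alone moved the median of all genes to 0.398 at 1 day and 0.428 at 3 days, and the share higher among called genes from 49.5% to 67.9% and from 57.2% to 66.7%. Leaving out 1 library gave 1 to 3 members called at 1 day, 4 to 8 at 3 days, 2 to 4 for the difference and 3 to 6 within MI. Tagln and Abcc9 at 3 days, and their differences between days, were called in all alternatives run, as were Cnn1 and Rgs5 at 3 days.

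At 1 day Rgs5 was 0.2104 with library sizes alone and 0.01427 with upper quartile factors, and Cspg4 was -0.004476 with relative log expression factors, -0.005419 in DESeq2, -0.0539 without the filter and -0.002103 with 2 groups in the fit. Lmod1 at 3 days was -0.01913 with 2 groups. Smtn within MI was 0.1802 with library sizes alone, 0.08869 in limma-voom and 0.09294 without the filter. Within sham, library sizes alone gave 0.1365 for Notch3 and 0.066 for Abcc9, and upper quartile factors 0.006573 for Notch3. Leaving out 1 library gave ranges across 0: at 1 day -0.745 to 1.046 for Cnn1 and -0.1802 to 0.1532 for Cspg4; at 3 days -0.4127 to 0.337 for Lmod1; for the difference -0.6878 to 0.5339 for Smtn and -0.0321 to 0.459 for Pdgfrb. Within MI the ranges were -0.518 to 0.7528 for Smtn and -0.2413 to 1.068 for Lmod1, and within sham -0.3048 to 0.5523 for Smtn, -0.08059 to 0.2691 for Pdgfrb and -0.2158 to 0.1621 for Notch3.

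Counts of all genes called moved from 6051 at 1 day to 2688 without sham library A and 9388 without MI library A of that day. With a read-weighted transcript length, Smtn stood at 23.6 and Pdgfrb at 21.7 CPM per kilobase in MI at 3 days, overlapping, and Rgs5 and Abcc9 overlapped in sham at 3 days. No paired analysis was possible because the count columns carry no replicate number. The alternative with unique transcript reads was not run. List medians without MI library B of 1 day, the alternatives for single listed genes and the fit with transcript totals were added after seeing the data. Depth limits Cnn1 and Lmod1 most, with 9 to 69 reads of Lmod1 a library.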
